A study of Mus musculus with 24 samples.

Results

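Cd40, Cd80, Cd86, Cd83, Cd69, Cd274, Icam1, Vcam1, Icosl and Cd44 encode surface molecules through which microglia and macrophages signal to lymphocytes or bind other cells and the matrix. The 10 genes were taken by symbol from the 54838 identifiers of a gene count table, and all 10 are described. The table came from RNA-seq of poly-A RNA from SIM-A9 cells, an established line of spontaneously immortalised mouse microglia, grown without the other cells of the brain. The study asked how such cells respond to probes used in neuroscience, including carbon nanotube sensors, with bacterial lipopolysaccharide (LPS) as the inflammatory positive control. Cells in wells of a 48-well plate were moved to 270 uL of serum-free DMEM/F12, received 30 uL of a concentrated sample and were lysed 2 h later. The 8 groups of 3 libraries each were an untreated control, LPS, (GT)6 SWCNT (single-walled carbon nanotubes carrying a short single-stranded DNA of GT repeats), COOH SWCNT (carboxylated single-walled carbon nanotubes), AAV (adeno-associated virus), Fura-2 (a calcium dye), and DiBASC2 and Di-2-ANEPEQ (dyes that sense membrane voltage). Doses, the AAV's cargo and serotype, and a vehicle for each probe were not given in the sources used here, and all groups, the control included, were in serum-free medium. The labels do not say whether the 3 libraries of a group came from separate cultures, so p-values measure the spread between these libraries, which may be technical. The DiBASC2 and Di-2-ANEPEQ groups follow the sample titles, because the treatment labels spell both names in several ways.

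A T cell that recognises antigen is activated fully only when the presenting cell also offers costimulation. CD80 and CD86 provide it through CD28 on the T cell, ICOS ligand (Icosl) through ICOS, and CD40 receives help in return from CD40 ligand, whereas PD-L1 (Cd274) restrains T cells through PD-1. ICAM-1 and VCAM-1 hold cells together by binding the leukocyte integrins LFA-1 and Mac-1, and VLA-4, respectively, and CD44 binds hyaluronan. Several of these genes are classical targets of NF-kB downstream of Toll-like receptor 4, the receptor for LPS.

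The genes lie on GRCm38 as follows in GENCODE M21, and all 10 are protein-coding. Cd40 is at chr2:165055627-165072948 and Cd44 at chr2:102811141-102901665. Cd80 and Cd86 lie on chromosome 16, at chr16:38455561-38496335 and chr16:36603869-36666081. Cd83 is at chr13:43784775-43803132, Cd69 at chr6:129267325-129275436, Cd274 at chr19:29367455-29388095 and Icosl at chr10:78069302-78083913. Icam1 is at chr9:21015985-21028817 and Vcam1 at chr3:116109949-116129688. Cd86, Cd69, Vcam1 and Cd44 are on the minus strand and the others on the plus strand.

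Promoters of 5 of the 10 genes (Cd80, Cd274, Icam1, Icosl and Cd44) could be read from RefSeq on GRCm38.p6, as 300 bases from 250 before to 50 after the annotated start. They were searched on both strands for 6 motifs. These were the NF-kB consensus, the RelA and c-Rel form of the kB site, AP-1 (TGACTCA or TGAGTCA) and the serum response element. The others were the STAT site GAS (TTCNNNGAA) and the interferon-stimulated response element (GAAA, any 2 bases and GAAA). The RelA and c-Rel form was added after the 5 promoters had been searched for the others. It begins with a base other than G, where the NF-kB consensus begins with G. The same bases therefore cannot match both, though shifted matches to each may overlap. Of the 5, only Icam1 and Icosl had matches, and these are shown. The sequences run 5′ to 3′ on the plus strand, which is the genes' own, and stop before the first start of the gene in RefSeq or GENCODE, and capitals mark the matches.
Icam1, chr9:21015690-21015939: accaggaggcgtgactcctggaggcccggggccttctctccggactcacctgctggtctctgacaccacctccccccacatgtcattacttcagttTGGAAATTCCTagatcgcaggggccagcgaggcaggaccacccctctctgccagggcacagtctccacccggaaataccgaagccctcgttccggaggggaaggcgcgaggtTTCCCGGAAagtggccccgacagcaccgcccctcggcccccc
Icosl, chr10:78069118-78069301: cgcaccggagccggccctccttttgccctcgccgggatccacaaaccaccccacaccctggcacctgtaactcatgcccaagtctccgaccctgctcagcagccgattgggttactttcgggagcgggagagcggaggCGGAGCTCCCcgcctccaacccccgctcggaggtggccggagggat
In Icam1 the first run of capitals holds 2 overlapping RelA and c-Rel matches, one on each strand, of which the plus-strand match TGGAAATTCC begins 154 bases before the start. The second run, TTCCCGGAA, matches the GAS pattern on both strands and begins 42 bases before the start. In Icosl the RelA and c-Rel match CGGAGCTCCC begins 112 bases before the RefSeq start. Of 32851 RefSeq promoters of this length, 8.38% held the RelA and c-Rel form and 8.3% a GAS. The NF-kB consensus was in 4.51%, AP-1 in 5.2%, the serum response element in 1.63% and the interferon-stimulated response element in 3.44%. No match to any of the 6 lay in the Cd80, Cd274 or Cd44 windows, which says only that these letters are not there. The Cd80 window, chr16:38458683-38458982, surrounds a RefSeq start that lies inside the gene, downstream of its GENCODE start at 38455561. The stretch before that GENCODE start was not searched.

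Libraries held 17364272 to 29259221 counts assigned to genes, so that 3 counts, taken as the floor, correspond to 0.102 to 0.176 counts-per-million (CPM). All 11 microglia and macrophage markers were above that floor in every group, with a summed level of 2332 to 2563 CPM. Among them, however, P2ry12 (group means 1.844 to 2.675 CPM), Tmem119 (2.987 to 4.702 CPM) and Aif1 (3.005 to 4.578 CPM) were low. Of the markers of other cells, the 4 oligodendrocyte markers together stood at 3.411 to 5.794 CPM over all libraries. Most of this was Mbp (group means 3.979 to 5.193 CPM), while Mog was at 0 in all 8 groups. The 4 neuron markers together reached at most 1.028 CPM in any library, the 4 endothelial markers 0.6027 CPM and the 4 lymphocyte markers 0.5586 CPM. Among the endothelial markers, Cldn5 was at 0 in all 8 groups. The 4 dendritic cell markers together stood at 2.526 to 3.843 CPM in control, 4.617 to 4.860 CPM in LPS, 3.631 to 4.925 CPM in (GT)6 SWCNT and 3.566 to 4.664 CPM in COOH SWCNT. Nearly all of this was Zbtb46 (means 2.793 CPM in control and 4.422 in LPS), while Xcr1 went from 0.2661 to 0.1817 CPM and Clec9a was at 0 in these 4 groups. The 4 astrocyte markers together were at 0.4345 CPM or less in every library. The part of other cells in the results was not tested. In bulk RNA, more cells carrying a transcript and more transcript per cell cannot be told apart. The order of the library numbers follows the groups, so library order and group cannot be told apart.

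Untreated cells already carried transcripts of most of these molecules. Per kilobase of exon, Cd83 was highest in control at 77.90 CPM per kb, followed by Cd44 (56.46), Icam1 (40.82) and Cd86 (20.32). The length is the union of the exons of all annotated transcripts, 6776 bases from 9 transcripts for Cd44 and 2572 from 2 for Cd83. The order of genes on this scale depends on that choice of length. Cd40 (3.967), Cd80 (3.672), Icosl (2.805) and Cd274 (1.983) formed a lower tier on the same per-length scale, Cd69 stood at 0.1401 CPM per kb, and Vcam1 was near the floor at 0.009622 CPM per kb. After LPS the per-length order was Cd83 (274.8), Icam1 (158.3), Cd44 (72.53), Cd40 (27.50) and Cd86 (19.97). Cd86 was thus above Cd40 per length in control and below it in LPS. All values that follow are CPM not divided by length, and fold changes are log2 values with their standard errors.

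**Figure D1:**
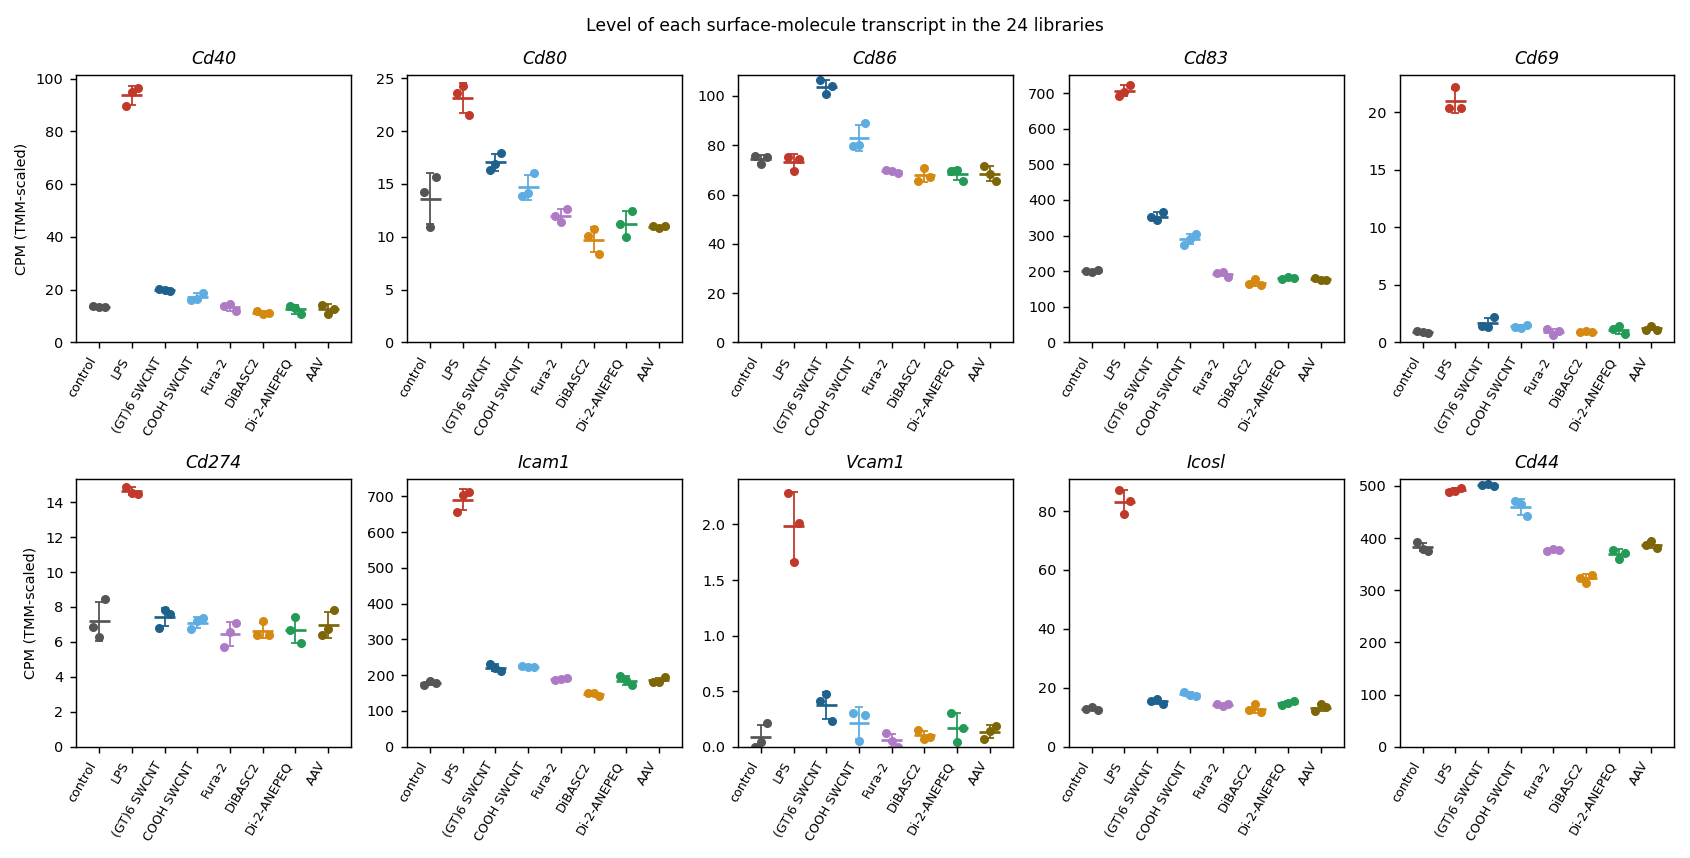
Counts-per-million (CPM) scaled by TMM factors (vertical axes, linear, each panel on its own scale) for 10 genes in the 24 libraries, by group along the horizontal axis; points are libraries, and bars give the mean and SD of 3. LPS stands above every other group in 8 panels, while for Cd86 and Cd44 the (GT)6 SWCNT group is highest at 103.7 and 501.4 CPM.

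LPS raised 9 of the 10 transcripts, and Cd86 was the exception. A gene counts as called at an adjusted p under 0.05 in edgeR's quasi-likelihood test with Benjamini-Hochberg adjustment over the 13116 genes tested, of which 28.3% were called in LPS against control. Vcam1 entered the test only because of its LPS libraries, and without it 8 of 9 genes were called, all higher. The median log2 fold change of those 9 was 1.82, beside -0.01 over all genes tested. The 7 treatment comparisons share their 3 control libraries.

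The receptor of T-cell help, Cd40, stood at 13.73, 13.36 and 13.45 CPM in the control libraries and at 89.62, 95.03 and 96.40 CPM in LPS. The groups lay far apart, and the 6.94-fold rise (log2 2.79 ± 0.08 SE) had an adjusted p of 1.8e-26 in edgeR's test. Among the ligands, Icosl, the partner of ICOS on T cells, went from 12.96, 13.48 and 12.44 CPM to 87.01, 78.87 and 83.36 CPM. This 6.39-fold rise (log2 2.68 ± 0.07 SE, edgeR adjusted p = 1.43e-27) was the largest among the 4 B7-family members described here. Cd274, which encodes the inhibitory ligand PD-L1, rose 2.05-fold from 6.865, 6.253 and 8.433 CPM to 14.88, 14.50 and 14.49 CPM (log2 1.03 ± 0.11 SE, edgeR adjusted p = 4.44e-10). Its exons share 511 bases with AC119228.1 on the other strand, and whether the counting used strand is not given in the sources used here, so its value is uncertain to that extent.

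The classical CD28 ligands parted. Cd80 rose 1.71-fold, from 14.22, 10.93 and 15.64 CPM in control to 23.57, 24.26 and 21.54 CPM in LPS (log2 0.78 ± 0.10 SE, edgeR adjusted p = 3.28e-08). Cd86 stood at 75.46, 72.48 and 75.26 CPM in control and at 75.33, 69.50 and 74.49 CPM in LPS. Its libraries overlapped between the groups, and the difference of -0.02 on the log2 scale had a 95% interval of -0.12 to 0.07 (edgeR adjusted p = 0.761). Per length, the Cd86 to Cd80 ratio was 5.366, 6.706 and 4.867 in the control libraries and 3.233, 2.898 and 3.497 in LPS. All LPS ratios lay below all control ratios, with means of 5.647 ± 0.951 and 3.209 ± 0.300 (SD, n = 3), and the two-sided exact permutation test gave p = 0.10, the smallest that 3 against 3 allows. In the other 6 groups the ratio stayed between 5.331 and 8.107 in every library, highest on average in DiBASC2 (7.126 ± 0.851, SD, n = 3).

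**Figure D2:**
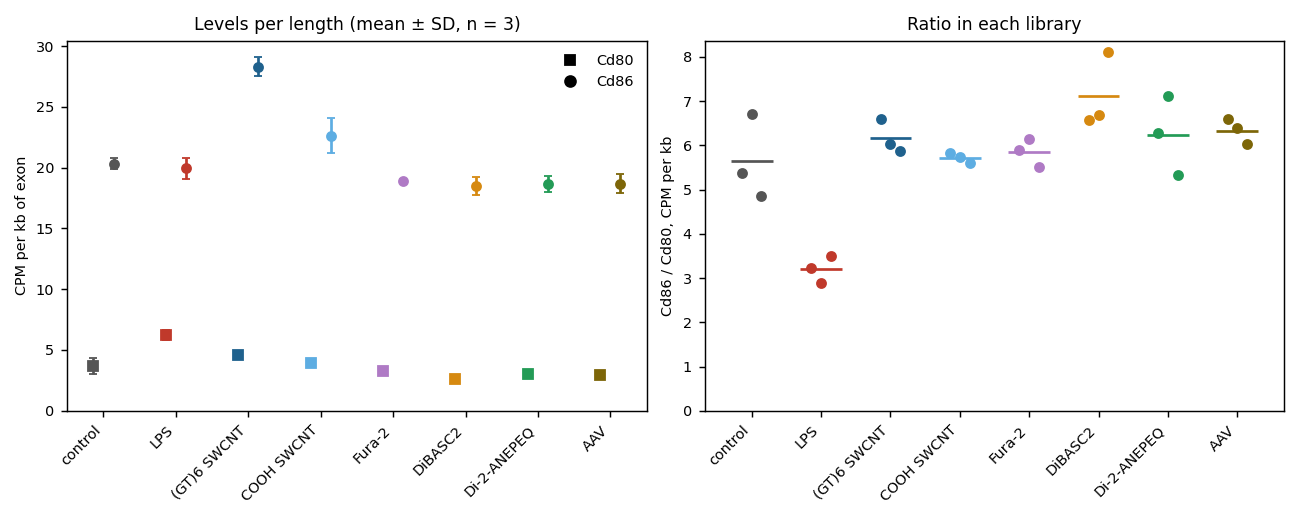
Left, mean level of Cd80 (squares) and Cd86 (circles) in CPM per kilobase of exon, with SD over 3 libraries, by group; right, the ratio of the 2 genes in each library, with the group mean as a line. The 3 LPS libraries have ratios of 2.898 to 3.497, below the 4.867 or more of all 21 other libraries.

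The activation markers of antigen-presenting cells and lymphocytes, Cd83 and Cd69, both rose. Cd83, which stabilises MHC class II and CD86 at the cell surface, went from 199.3, 197.4 and 204.3 CPM to 692.6, 704.0 and 723.7 CPM, a 3.53-fold change (log2 1.82 ± 0.04 SE, edgeR adjusted p = 3.66e-30). Cd69, a C-type lectin that appears early after activation and limits lymphocyte exit from tissue, was scarce in control at 0.9886, 0.8932 and 0.854 CPM (16 to 21 counts). It reached 20.42, 22.21 and 20.37 CPM in LPS, a 23.0-fold rise (log2 4.52 ± 0.17 SE, edgeR adjusted p = 6.81e-23), the largest among the 9 genes that did not depend on LPS for entering the test.

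Of the adhesion molecules, Icam1, the ligand of LFA-1 and Mac-1 whose promoter matches are printed above, rose 3.88-fold. Its libraries stood at 171.9, 182.7 and 179.3 CPM in control and at 656.4, 703.3 and 711.3 CPM in LPS (log2 1.96 ± 0.04 SE, edgeR adjusted p = 3.66e-30). Its exons share 511 bases with the antisense gene Gm47079, which had 0 to 7 counts per library. Vcam1, the ligand of VLA-4, had 0, 1 and 4 counts in control and 42, 34 and 43 in LPS. The summed counts, 5 against 119, give a ratio of 23.9 with a 95% interval of 9.94 to 74.8, which covers counting error only. In CPM the highest LPS library reached 2.281, so Vcam1 remained the least abundant of the 10 transcripts. Cd44, the hyaluronan receptor, rose by a small and narrowly determined amount, from 391.9, 379.7 and 376.1 CPM to 487.9, 490.7 and 495.8 CPM (1.28-fold, log2 0.36 ± 0.03 SE, edgeR adjusted p = 2.82e-11).

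**Figure D3:**
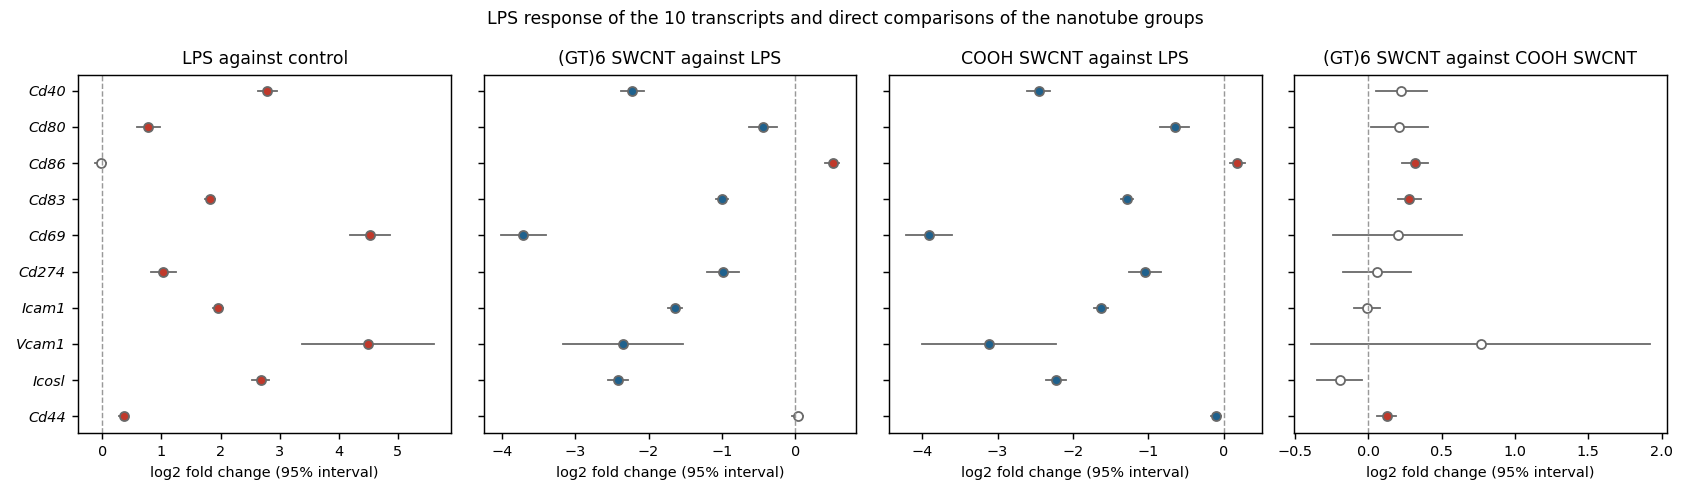
Log2 fold change with 95% interval (horizontal axes, a separate scale in each panel) of the 10 genes in LPS against control and in the 3 direct comparisons with the nanotube groups; filled points passed an adjusted p of 0.05, red for higher and blue for lower. Cd86 is the only open point in the first panel and the only red one in the second and the third.

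The DNA-bearing nanotubes raised most of these molecules too, and Cd86 and Cd44 to the highest mean of any group. In (GT)6 SWCNT against control 20.4% of all genes tested were called, and 9 of the 10 members were, all higher, or 8 of 9 without Vcam1, whose median log2 fold change was 0.39. Cd83 stood at 351.5, 342.5 and 365.4 CPM (log2 0.82 ± 0.04 SE, edgeR adjusted p = 1.16e-18), above all control libraries and below all LPS libraries. Cd40 stood at 20.44, 20.02 and 19.44 CPM (log2 0.57 ± 0.09 SE), again above control without overlap (edgeR adjusted p = 9.56e-06). Cd86, which LPS had left at the control level, stood at 106.4, 100.7 and 104.1 CPM (log2 0.48 ± 0.05 SE, edgeR adjusted p = 1.54e-10). All 3 of these libraries were above the highest Cd86 value of every other group. Cd44 stood at 501.0, 504.0 and 499.2 CPM (log2 0.39 ± 0.03 SE, edgeR adjusted p = 8.14e-12), beside 487.9 to 495.8 CPM in LPS. Icam1 stood at 230.6, 221.0 and 212.5 CPM (log2 0.32 ± 0.04 SE, edgeR adjusted p = 4.44e-07).

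The remaining calls in this group were less firm. Cd80 stood at 16.33, 16.89 and 17.92 CPM, all above control, with a log2 change of 0.33 ± 0.10 (SE, edgeR adjusted p = 0.0136) that fell to 0.20 without control replicate 2 (adjusted p = 0.193). Icosl, at 15.39, 16.33 and 14.64 CPM, changed by 0.26 ± 0.08 (SE, edgeR adjusted p = 0.0251), and the call was lost without control replicate 3 or (GT)6 SWCNT replicate 2 (highest adjusted p = 0.117). Cd69 had 34, 32 and 37 counts, 1.395, 1.375 and 2.167 CPM, and a log2 change of 0.81 ± 0.25 (SE, edgeR adjusted p = 0.0163). That call was lost without control replicate 2 or 3 or without (GT)6 SWCNT replicate 3 (highest adjusted p = 0.103). For Vcam1, 25 counts in all against 5 give a ratio of 4.67 (95% interval 1.76 to 15.6, counting error only), and its edgeR call (adjusted p = 0.0338) was lost in 4 of the fits that left out 1 library (highest adjusted p = 0.151). Cd274 stood at 6.813, 7.821 and 7.613 CPM, within the control range, and its difference of 0.05 on the log2 scale had a 95% interval of -0.19 to 0.29.

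The carboxylated nanotubes raised Cd40, Cd86, Cd83, Icam1, Icosl and Cd44. In COOH SWCNT against control 20.0% of all genes tested were called, and 6 of the 10 members were, all higher. Cd83 stood at 274.8, 290.8 and 304.9 CPM (log2 0.53 ± 0.04 SE, edgeR adjusted p = 7.52e-13), Icam1 at 224.6, 222.3 and 221.6 CPM (log2 0.32 ± 0.04 SE, adjusted p = 5.14e-07) and Cd44 at 471.4, 464.3 and 441.8 CPM (log2 0.26 ± 0.03 SE, adjusted p = 1.9e-07). None of these libraries overlapped control. Icosl, at 18.50, 17.63 and 17.06 CPM, changed by 0.45 ± 0.08 (SE, edgeR adjusted p = 6.89e-05) and lay above all (GT)6 SWCNT libraries. Cd40 (16.08, 16.47 and 18.84 CPM, log2 0.34 ± 0.09 SE, adjusted p = 0.00659) and Cd86 (79.77, 80.07 and 88.94 CPM, log2 0.16 ± 0.05 SE, adjusted p = 0.0131) were called with less margin. Without COOH SWCNT replicate 3 both lost the call, Cd40 at an adjusted p of 0.0574, and Cd86 also lost it without control replicate 2 (highest adjusted p = 0.119). Cd80, Cd69, Cd274 and Vcam1 did not pass, with log2 differences of 0.12, 0.61, -0.01 and 1.38. The 95% interval of Cd69 reached from 0.10 to 1.12 and that of Vcam1 from -0.26 to 3.02, and both intervals include the (GT)6 SWCNT estimates of 0.81 and 2.14.

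Direct tests separated the nanotube groups from LPS in nearly all members, and Cd86 ran against the rest. In (GT)6 SWCNT against LPS, where 21.6% of all genes tested were called, 8 members were lower and 1, Cd86, was higher, or 7 and 1 without Vcam1, whose place below LPS the filter fixed. In COOH SWCNT against LPS, where 37.8% were called, 9 were lower and again only Cd86 was higher, or 8 and 1 without Vcam1. Cd86 was 1.42-fold higher in (GT)6 SWCNT (log2 0.51 ± 0.05 SE, edgeR adjusted p = 3.09e-11) and 1.14-fold higher in COOH SWCNT (log2 0.18 ± 0.05 SE, adjusted p = 0.0018) than in LPS, and neither nanotube group overlapped LPS. The widest gap below LPS was in Cd69, 13.1-fold for (GT)6 SWCNT and 15.0-fold for COOH SWCNT, and Cd40 was lower by 4.68-fold and 5.47-fold. Icosl was lower by 5.36-fold and 4.68-fold, Icam1 by 3.12-fold and 3.10-fold, and Cd83 by 2.00-fold and 2.44-fold. Cd274 was lower by 1.98-fold and 2.06-fold, near its level in control. Cd44 in (GT)6 SWCNT differed from LPS by 0.03 on the log2 scale, with a 95% interval of -0.04 to 0.10. In COOH SWCNT it was lower by a log2 value of -0.10 (adjusted p = 0.018), a call lost with upper-quartile scaling, without the low-count filter, with only these groups fitted and without COOH SWCNT replicate 3 (highest adjusted p = 0.265).

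Between the nanotube groups, where 21.4% of all genes tested were called, 3 members were higher with (GT)6 SWCNT. These were Cd86 (log2 0.32 ± 0.05 SE, edgeR adjusted p = 1.71e-06), Cd83 (0.28 ± 0.04 SE, adjusted p = 1.41e-06) and Cd44 (0.13 ± 0.03 SE, adjusted p = 0.00502). Cd40 leaned the same way at 0.22 (95% interval 0.05 to 0.40) and Icosl the other way at -0.19 (95% interval -0.35 to -0.04), with adjusted p-values of 0.0635 and 0.0712 that miss the threshold. Cd40 passed it without the low-count filter (adjusted p = 0.044), with only these groups fitted (0.0369) and without COOH SWCNT replicate 3 (0.0204), and the split was 4 higher and 0 lower in the first and second of these fits. Icosl passed it with upper-quartile scaling (adjusted p = 0.0411), where the split was 3 higher and 1 lower. Icam1 differed by -0.01, with a 95% interval of -0.10 to 0.08. Doses of the 2 preparations are not given in the sources used here, so the comparison is of these libraries and not of matched amounts.

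The dye DiBASC2 lowered 4 members and raised none, in a comparison in which 5.47% of all genes tested were called. Icam1 stood at 149.2, 148.9 and 140.4 CPM (log2 -0.28 ± 0.04 SE, edgeR adjusted p = 3.38e-05), below every library of the other 7 groups. Cd44 stood at 324.1, 314.2 and 330.0 CPM (log2 -0.25 ± 0.03 SE, adjusted p = 4.24e-06), likewise below every other library. Cd83 stood at 164.4, 177.7 and 160.6 CPM (log2 -0.26 ± 0.04 SE, adjusted p = 5.18e-05), below control but overlapping AAV. Cd80 stood at 10.04, 10.69 and 8.382 CPM (log2 -0.47 ± 0.10 SE, adjusted p = 0.00453), and this call was lost without control replicate 3 or DiBASC2 replicate 3 (highest adjusted p = 0.0759). Cd40, at 11.88, 10.80 and 11.33 CPM, also lay below the control libraries, but its log2 difference of -0.25 (95% interval -0.45 to -0.06) did not pass (adjusted p = 0.133). Icosl and Cd274 overlapped control, with differences of -0.01 and -0.10.

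Fura-2, Di-2-ANEPEQ and AAV left nearly all members uncalled. With Fura-2, where 0.252% of all genes tested were called, edgeR called 0 of the 10 and DESeq2 also 0. In edgeR's test 1 member (Cd86) had an unadjusted p under 0.05, beside 1411 of the 13116 genes tested. With Di-2-ANEPEQ (3.08% of genes called) and with AAV (5.00%), the 1 called member was Cd83. It stood at 179.2, 184.4 and 180.0 CPM with Di-2-ANEPEQ (log2 -0.14 ± 0.04 SE, edgeR adjusted p = 0.0382), and the call was lost whichever of the 6 libraries was left out (highest adjusted p = 0.154). With AAV it stood at 180.4, 175.1 and 174.5 CPM (log2 -0.18 ± 0.04 SE, adjusted p = 0.00674), and the call was lost without control replicate 3 or AAV replicate 2 (highest adjusted p = 0.056). Cd80 was not called with either, at -0.27 (adjusted p = 0.153) and -0.30 (adjusted p = 0.0765), and became called without control replicate 2 (adjusted p = 0.0158 and 0.00922). Cd86 lay below all 3 control libraries in every library of the dye and AAV groups, at 65.37 to 71.53 CPM against 72.48 to 75.46 CPM. Its log2 differences were -0.10 for Fura-2, -0.13 for DiBASC2, -0.12 for Di-2-ANEPEQ and -0.12 for AAV, none of which passed (adjusted p = 0.439, 0.0934, 0.161 and 0.131), and all 4 rest on the same control libraries.

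**Figure D4:**
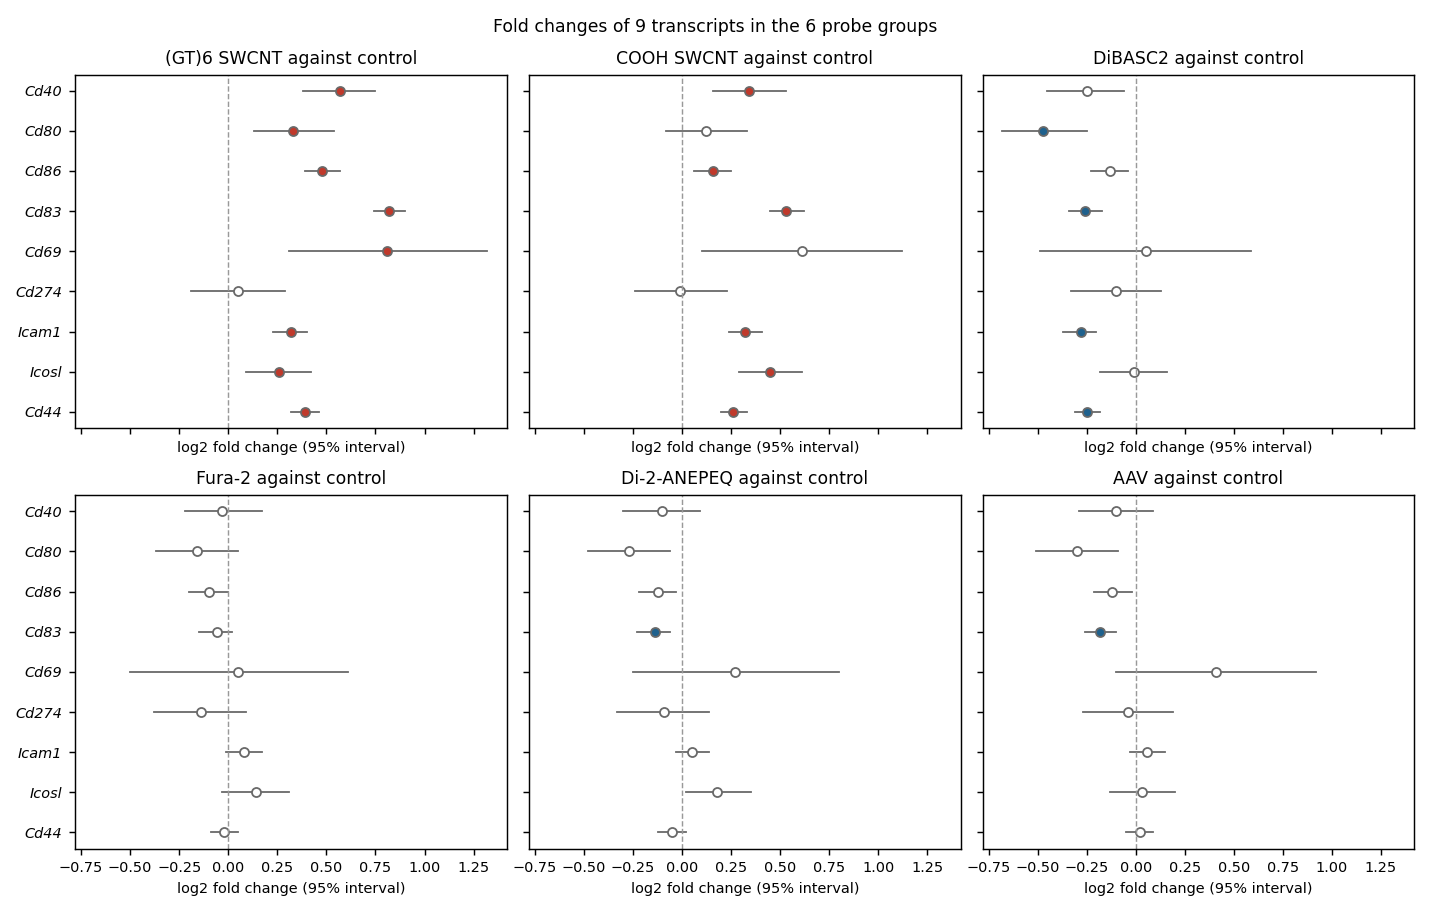
Log2 fold change against control with 95% interval (horizontal axes, 1 scale for all panels) of 9 genes in the 6 probe groups; filled points passed an adjusted p of 0.05, red for higher and blue for lower. Vcam1 is left out because its intervals are wider than the axis; the nanotube panels lie mostly to the right of 0, and DiBASC2 has 4 filled points to the left.

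Ordered by mean level over the 8 groups, LPS came first for 8 members and (GT)6 SWCNT for Cd86 and Cd44. The libraries of each first group did not overlap those of the next. For Cd44 the gap was narrow, 499.2 against 495.8 CPM at the nearest libraries. Its log2 difference from LPS of 0.03 was not called (edgeR adjusted p = 0.617). Cd40, Cd83 and Cd80 ran LPS, (GT)6 SWCNT, COOH SWCNT and then control, where COOH SWCNT and control overlapped for Cd80 only. For Icam1 and Icosl COOH SWCNT stood second, overlapping (GT)6 SWCNT for Icam1 and clear of it for Icosl. Below the nanotubes most neighbouring groups overlapped. For Icam1 and Cd44 DiBASC2 stood last and clear of every other library. For Cd80 it had the lowest mean and was clear of AAV, the group before it, but overlapped Di-2-ANEPEQ. For Cd274 all 7 groups other than LPS lay between 5.722 and 8.433 CPM, with each neighbour overlapping the next.

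Other costimulatory and coinhibitory genes divided between directions. Of 22 listed, 14 passed the low-count filter, and in LPS 6 of these were higher and 3 lower (median log2 0.18), so 9 of 14 were called beside 28.3% of all genes tested. Tnfsf15 (88 counts in LPS and 7 in control) passed the filter through its LPS libraries, so the 9 of 14 include a call that the filter favoured. Tnfsf9, the ligand of the T-cell receptor 4-1BB, rose 7.54-fold in LPS, from a mean of 19.31 to 146.0 CPM (edgeR adjusted p = 1.09e-30). With (GT)6 SWCNT it reached 30.45 CPM (adjusted p = 1.2e-09) and with COOH SWCNT 26.37 CPM (adjusted p = 7.91e-06). Its receptor Tnfrsf9 rose by log2 values of 0.42 with LPS and of 0.31 and 0.19 with (GT)6 and COOH SWCNT, and fell by 0.28 with DiBASC2. Pvr, the ligand shared by DNAM-1 and TIGIT, followed the same order. It rose from 53.96 CPM in control to 92.51 with LPS and to 82.22 and 71.05 with (GT)6 and COOH SWCNT, and fell to 42.56 CPM with DiBASC2 (adjusted p = 2.01e-06). Nectin2, another ligand of that pair, rose 1.74-fold in LPS (adjusted p = 2.94e-12).

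Vsir, which encodes the T-cell inhibitor VISTA, fell by 0.59 on the log2 scale in LPS (edgeR adjusted p = 2.27e-09). With DiBASC2 it rose by 0.34 (adjusted p = 0.000337). Havcr2, which encodes TIM-3, fell by 0.26 with LPS and by 0.31 and 0.28 with (GT)6 and COOH SWCNT. Tnfsf14, which encodes LIGHT, a ligand of HVEM, fell by 1.28, 1.32 and 1.51 in those groups, from 56 summed counts in control. Cd48, a partner of CD244 that was not called in LPS, fell by 0.21 and 0.25 with these nanotubes and by 0.23 with Di-2-ANEPEQ. Tnfrsf14, which encodes HVEM, rose by 0.57 in LPS and 0.47 in COOH SWCNT. It was the 1 list gene called in Fura-2 (0.48, edgeR adjusted p = 0.042), where 0.252% of all genes were called. With (GT)6 SWCNT 3 list genes were higher and 3 lower, and with COOH SWCNT the split was 4 to 3, beside 20.4% and 20.0% of all genes called. DiBASC2 raised 1 and lowered 2, and Di-2-ANEPEQ lowered 1 and raised none, beside 5.47% and 3.08% of all genes called. The Di-2-ANEPEQ call was lost with the replicate block. With AAV, where 5.00% of all genes were called, Tnfsf9 was higher and none lower, which became 1 and 1 with upper-quartile scaling.

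Among the integrins, ligand partners and hyaluronan genes that act with ICAM-1, VCAM-1 and CD44, 24 of 28 passed the filter. LPS left 9 higher and 2 lower, (GT)6 SWCNT 8 and 1 (Hmmr), and COOH SWCNT 7 and 2 (Hmmr and F11r). The 11, 9 and 9 of 24 called stand beside 28.3%, 20.4% and 20.0% of all genes tested. Itga5, the alpha subunit of the fibronectin receptor, rose most among the abundant ones, from 180.9 CPM in control to 601.3 with LPS (3.32-fold, edgeR adjusted p = 6.05e-28). It reached 398.6 CPM with (GT)6 SWCNT (adjusted p = 1.65e-21) and 297.5 CPM with COOH SWCNT (adjusted p = 5.06e-15), and fell to 153.8 CPM with DiBASC2 (adjusted p = 0.000873). Itgav, the alpha subunit of vitronectin and osteopontin receptors, moved likewise by 0.22, 0.17 and 0.14, and fell by 0.19 in DiBASC2. Msn, which links CD44 to actin, rose by 0.16 with LPS and by 0.30 and 0.16 with (GT)6 and COOH SWCNT. Cd47, the ligand of SIRP-alpha, rose by 0.37 in LPS and Itga4, the alpha subunit of VLA-4 that binds VCAM-1, by 0.16, while Itgam, the alpha subunit of Mac-1, fell by 0.17 and Itga6 by 0.22. Icam4, another list gene called in LPS, had 31 summed counts there and 10 in control, and 2 of the 3 libraries that took it past the filter were LPS. The 11 of 24 called in LPS include this call, which the filter favoured.

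Itgax and Itgb3 were higher in the nanotube groups than in LPS. Itgax, the alpha subunit of the integrin CD11c, rose from 46.67 CPM to 57.96 and 54.79 with (GT)6 and COOH SWCNT and stood at 43.67 CPM with LPS. The nanotube groups exceeded LPS by 0.41 and 0.33 on the log2 scale (edgeR adjusted p = 3.83e-06 and 8.07e-05). Itgb3, the beta subunit that pairs with Itgav, was scarce at 37 summed counts in control and 40 with LPS, beside 125 and 93 with (GT)6 and COOH SWCNT. It exceeded LPS by 1.53 and 0.97 (adjusted p = 0.000764 and 0.0306). Hmmr, a hyaluronan receptor also tied to the mitotic spindle, fell by 0.15 and 0.25 in the nanotube groups and by 0.13 in AAV. Spp1, which encodes osteopontin, a ligand of CD44 and integrins, was abundant at 1556 CPM in control, rose to 1867 CPM in (GT)6 SWCNT (adjusted p = 0.00113) and fell to 1337 CPM in DiBASC2 (adjusted p = 0.0237). The hyaluronan synthases Has1, Has2 and Has3 did not pass the filter. DiBASC2 lowered 4 list genes, Itga5, Itgav, Itgb1 and Spp1 (2 called with upper-quartile scaling), and raised none, beside 5.47% of all genes called. With Di-2-ANEPEQ (3.08% of all genes called) only Itgb7 was called, and it was higher. AAV (5.00% of all genes called) raised Itga4 and Msn and lowered Hmmr (0 higher and 1 lower with upper-quartile scaling). With Fura-2 (0.252% of all genes called) edgeR called 0 and DESeq2 called 1. In edgeR's test 4 of the 24 had an unadjusted p under 0.05, beside 1411 of the 13116 genes tested. F11r, Itgb1 and Itgb7 are named here after their values were seen, as are Cd74, Tapbp and Tap1 below.

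Of 16 listed genes for presenting the antigen itself, 12 passed the filter. With LPS 5 of the 12 were called, beside 28.3% of all genes tested, 5 higher (Cd74, Ciita, H2-K1, H2-D1 and Tapbp) and 0 lower, or 5 and 2 with upper-quartile scaling. H2-K1 and H2-D1, the heavy chains of MHC class I, rose by 0.52 and 0.30 in LPS and fell by 0.16 and 0.13 in AAV. Reads of these near-identical genes may have been split, so their values are uncertain. Ciita, the master regulator of MHC class II, had 54 summed counts in LPS and 6 in control and passed the filter through its LPS libraries. The 5 of 12 called in LPS thus include a call that the filter favoured. The class II genes themselves were at or near 0, with H2-Ab1 at 0 in control, LPS and (GT)6 SWCNT and H2-Eb1 at no more than 2 counts in any library, and did not pass. With (GT)6 SWCNT Cd74, the invariant chain of class II, was higher and the peptide transporter subunit Tap1 lower, and COOH SWCNT raised 1 gene, Tapbp. These 2 and 1 of 12 are no more than the 20.4% and 20.0% of all genes called. For the 3 dyes edgeR called 0 (Fura-2, DiBASC2, Di-2-ANEPEQ), beside 0.252%, 5.47% and 3.08% of all genes, and the DESeq2 test also called 0. In edgeR's test 1, 1 and 2 of the 12 had an unadjusted p under 0.05, beside 1411, 2451 and 2161 of the 13116 genes tested.

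**Figure D5:**
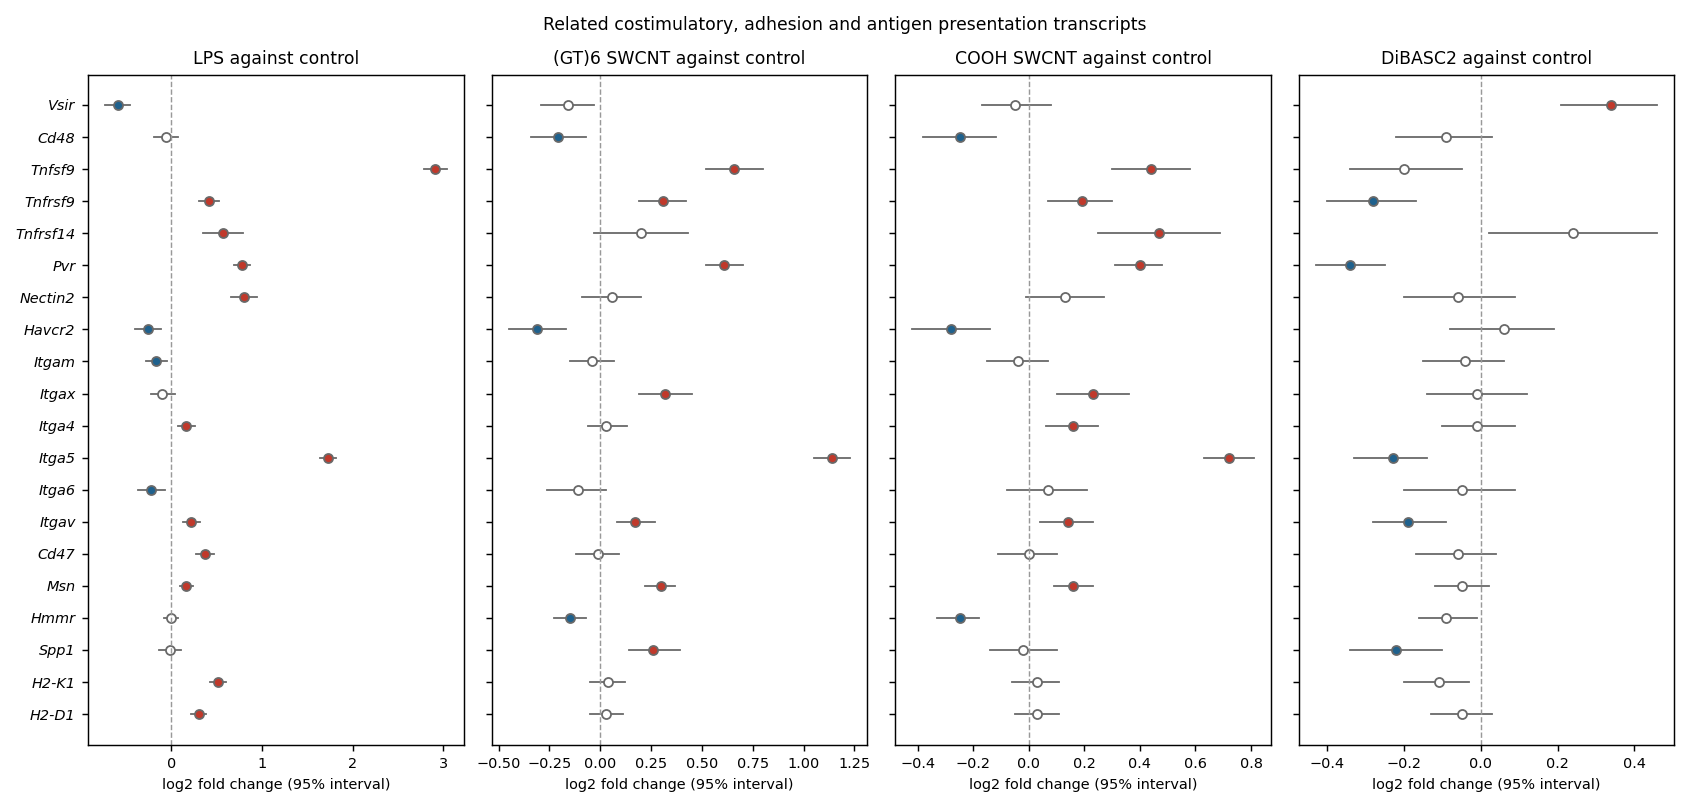
Log2 fold change with 95% interval (horizontal axes, a separate scale in each panel) of 20 related genes against control, from left to right for LPS, (GT)6 SWCNT, COOH SWCNT and DiBASC2; filled points passed an adjusted p of 0.05, red for higher and blue for lower. Tnfsf14, Tnfsf15, Icam4, Itgb3 and Ciita are left out for their low counts; Tnfsf9 and Itga5 lie farthest to the right in the LPS panel, and Itga5 in both nanotube panels.

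Genes with the most similar pattern were sought by Pearson's r of log2(CPM + 0.5) over the 8 group means, among 9485 genes with a mean of at least 5 CPM. LPS stands far from the other 7 points for most members, so a high r mainly reflects that 1 point. For Vcam1 it reflects little else. That gene entered only through its LPS libraries, and its other group means (0.05704 to 0.3724 CPM) lay below the 0.5 added before the log. Nearest to Cd40 were Snx20, Nfkbid and Clec4e (r = 0.995 each), and to Cd83 Mir155hg (0.997), Irak2 and Lilr4b (0.996 each). Cd69 ran closest to Il6 (0.999), Ripk2 (0.998) and Peli1 (0.997), and Cd274 to Ikzf1 (0.996), Il6 and Peli1 (0.995 each). For Icam1 they were Sdc4 and Rab11fip1 (0.999 each) and Birc3 (0.997), for Icosl Zc3h12a (0.998), Ikbke (0.997) and Irf1 (0.996), and for Vcam1 Sqstm1 (0.997), Rsad2 (0.995) and Slc7a11 (0.994). Cd80 lay nearest to Strn3 (0.993), Plk4 (0.990) and Zfr (0.988). The members without a lead of LPS had other neighbours. These were Serpinb6b (0.989), Sdc1 (0.987) and Cldn12 (0.985) for Cd86, and Coq10b and Slc30a4 (0.992 each) and C5ar1 (0.991) for Cd44.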

How the data were processed

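Poly-A RNA-seq was measured in 24 libraries, 3 in each of 8 groups. The authors deposited raw counts per gene, without normalisation; STAR 2.5.4b and GRCm38.p6 are named per the submitters' processing notes, while the counting step, annotation release and strand setting are not given in the sources used here. Of 54838 identifiers 54809 matched GENCODE M21 with the version ignored. From the counts, edgeR 4.0.16 in R 4.3.3 fitted 1 mean per group over all 24 libraries (16 residual degrees of freedom) with TMM factors, filterByExpr and the quasi-likelihood test, two-sided, with Benjamini-Hochberg adjustment per comparison, and was tested on simulated data. CPM are counts over the TMM-scaled library size. Alternatives were upper-quartile and DESeq2 1.42.0 size factors, the DESeq2 test, no filter on low counts, a filter at a mean of 50 counts, a replicate block, fits of only the groups compared, and leaving out each library. The members and lists were chosen with earlier results of these data known. All members are named whatever their values. From each list, up to 3 genes with the highest and 3 with the lowest fold change among those called in LPS are named, with those called in 2 or more of the other 6 treatments, and the 3 genes nearest each member. Intervals of counts are exact binomial at 95% and cover counting error only, and the floor is 3 counts.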

Additional observations from a re-analysis of the deposited data

How the results depend on the processing

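Over 1270 recomputed fold changes of the 10 genes, 1237 kept their side of the threshold, 27 lost the call, 6 gained one and 0 called values changed sign, while several uncalled values near 0 did change sign. Between replicates of the same number, deviations from the group means correlated at -0.105 to 0.0651, and between different numbers at -0.0915 to 0.114. No sign of pairing by number was seen, but with 3 libraries per group this cannot exclude it. With the replicate block the members called stayed at 9 in LPS, 9 in (GT)6 SWCNT, 6 in COOH SWCNT, 0 in Fura-2, 4 in DiBASC2, 1 in Di-2-ANEPEQ and 1 in AAV, and at 9, 10 and 3 in the direct comparisons, while the other costimulatory genes called went from 1 to 0 in Fura-2 and from 1 to 0 in Di-2-ANEPEQ. Leaving out 1 library gave 0 to 1 members called in Di-2-ANEPEQ and 0 to 2 in AAV. It gave 0 to 1, 0 to 1 and 0 to 2 other costimulatory genes in Fura-2, Di-2-ANEPEQ and AAV. For the adhesion partners it gave 4 to 9 in COOH SWCNT (4 without control replicate 1 or COOH SWCNT replicate 1), 1 to 3 in DiBASC2 (1 without DiBASC2 replicate 1), 0 to 1 in Di-2-ANEPEQ and 0 to 4 in AAV. For antigen presentation genes it gave 0 to 2 in (GT)6 SWCNT, 0 to 2 in COOH SWCNT, 0 to 1 in DiBASC2 and 0 to 2 in AAV. The 1 costimulatory gene called in Fura-2 became 0 with the DESeq2 test and with only the 2 groups compared, and the 1 in AAV became 2 with upper-quartile factors, the DESeq2 test, no filter on low counts, a filter at a mean of 50 counts and only the 2 groups. Adhesion partners went from 0 to 1 in Fura-2 with the DESeq2 test, from 4 to 2 in DiBASC2 with upper-quartile factors, from 1 to 2 in Di-2-ANEPEQ with only the 2 groups, and from 3 to 1 in AAV with upper-quartile factors and with no filter. Antigen presentation genes went from 1 to 0 in COOH SWCNT with no filter. The causes were not tested. Of all genes, 33 were called in Fura-2, but 85 with the DESeq2 test, 188 with no filter, 80 with only the 2 groups and 0 to 106 when 1 library was left out. In Di-2-ANEPEQ 404 became 814 with only the 2 groups and 120 without control replicate 1, in DiBASC2 717 became 333 without that library, and in AAV 656 became 157 without control replicate 3. Depth limits Vcam1 above all, with 0 to 11 counts per library outside LPS, and Cd69 with 13 to 41.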
